A study of Mus musculus with 32 samples.

Results

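The granzyme genes and the perforin gene of the mouse were followed in donor T cells sorted before and after transplantation into hosts of another strain or of their own. The members were 10 genes chosen by symbol (Gzma, Gzmb, Gzmc, Gzmd, Gzme, Gzmf, Gzmg, Gzmk, Gzmm and Prf1), of which 9 had a row in the expression table of 16741 genes. No expression value of Gzmg was analysed here, and its promoter enters only a comparison of sequences. All 9 passed the filter on low values.

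Granzymes are serine proteases stored in the cytotoxic granules of T cells and NK cells. Perforin, the product of Prf1, forms pores in the membrane of the target cell through which granzymes enter its cytosol. Granzyme B cleaves caspases and other substrates after aspartate and triggers apoptosis, whereas granzymes A and K cut after basic residues. In graft-versus-host disease (GVHD), donor T cells attack host tissue, and both granule killing and death ligands such as Fas ligand take part. Regulatory T cells (Treg) restrain that attack and can themselves express granzyme B.

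The study transplanted T cells of C57Bl6 donors into Balb/c recipients as a GVHD model and sequenced bulk RNA of sorted populations from spleen and lymph nodes. The 31 libraries fall into 10 groups. Conventional CD4+ T cells (CD4), CD8+ T cells (CD8) and Treg were sampled before transplantation (day 0, 2 libraries each). After transplantation, CD4 and CD8 were each sorted from syngeneic untreated recipients (3 libraries), allogeneic untreated recipients with GVHD (4 libraries) and allogeneic recipients given donor Treg at day 0 (Treg-treated, 4 libraries). The infused Treg were recovered from Treg-treated recipients (3 libraries). Sample titles place the recovered cells at day 6, whereas the series text gives 8 days. The labels do not say how the conventional cells were gated free of the infused Treg, nor whether cells of several mice were pooled for a library. They name no separate animals for the replicates, so p-values measure only the spread between these libraries. Every replicate label starts with JL019 or JL027, prefixes that the deposited receptor tables call experiments.

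Values are the authors' normalised signal. The mean value per gene ranged from 1227 to 2385 over the 31 libraries, and the sequencing depth is unknown. Cd4 lay at 8.76 to 92.8 in the CD8 libraries and at 1659 to 21481 in the CD4 libraries. Cd8a reached 14160 to 61115 in CD8 libraries. It was at most 64.4 in CD4 libraries outside the syngeneic group, where it reached 1956. The summed value of 5 Treg markers was 51021 to 52759 in day 0 Treg and 108201 to 158385 in recovered Treg, against 9099 to 9700 in day 0 CD4. Foxp3 alone, the defining factor of Treg, was lower in day 0 Treg (198 to 442) than in day 0 CD4 (978 to 1145). Recovered Treg held 265 to 293, above the CD4 of the same Treg-treated recipients (127 to 178) and below allogeneic CD4 (337 to 579). Neither Treg contrast with CD4 passed for Foxp3 (limma adjusted p = 0.309 at day 0 and 0.330 in Treg-treated recipients). The summed list thus matched the label of day 0 Treg, whereas Foxp3 went against it. The library of syngeneic CD4 labelled JL019-2 stood apart. Its summed value of 10 myeloid markers was 3589930, against 692 to 86747 in the other 30 libraries, and its Cd4 value was the lowest of its group. It also had an NK sum of 1887, against 81.2 and 92.8 in the other 2 syngeneic CD4 libraries, and a CD8 T cell sum of 5116 against 944 and 1150.5. Calls of members that changed without it are given with and without it.

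**Figure D1:**
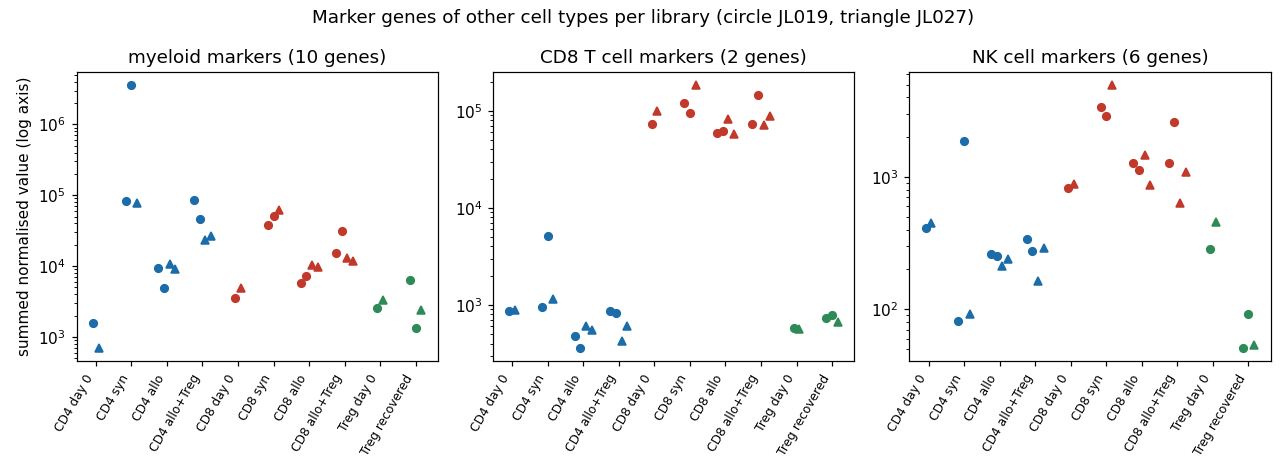
Summed normalised value of the myeloid (10 genes), CD8 T cell (2 genes) and NK cell (6 genes) marker lists in each library, on a log axis, by group. Each point is a library (circles JL019, triangles JL027). The syngeneic CD4 library JL019-2 has the highest myeloid sum (3589930), and the 3 syngeneic CD8 libraries have the highest NK sums (2900 to 4961).

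The members lie in 4 places of the GRCm38.p6 assembly, by RefSeq. Gzmb (chr14:56258836-56262334), Gzmc (chr14:56231397-56241647), Gzmf (chr14:56205263-56211407), Gzmd (chr14:56129556-56132603) and Gzme (chr14:56117619-56120625) form the granzyme B locus on the minus strand of chromosome 14. Gzma (chr13:113093824-113100981) and Gzmk (chr13:113171630-113180965) are neighbours on the minus strand of chromosome 13. Prf1 (chr10:61297751-61304684) and Gzmm (chr10:79689020-79695261) lie apart on the plus strand of chromosome 10. The genes from Gzmc to Gzmg are close copies of each other, and how the counting divided reads between them is not given in the sources used here. Their separate values are therefore uncertain.

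The 250 bases before the start of 6 members are shown, because these genes moved in different ways below: Gzmb rose in every population after transfer, Gzmc differed in the Treg-treated arm, Gzmd, Gzme and Gzmf appeared mainly in CD8, and Gzmm went the other way in CD8. Sequences are 5′ to 3′ on the gene's strand, from RefSeq on GRCm38.p6. Capitals mark matches on either strand to RUNX, AP-1 and STAT motifs, whose letters are given with the counts after the sequences. The marked matches do not overlap each other.
Gzmb (chr14:56262335-56262584, minus strand): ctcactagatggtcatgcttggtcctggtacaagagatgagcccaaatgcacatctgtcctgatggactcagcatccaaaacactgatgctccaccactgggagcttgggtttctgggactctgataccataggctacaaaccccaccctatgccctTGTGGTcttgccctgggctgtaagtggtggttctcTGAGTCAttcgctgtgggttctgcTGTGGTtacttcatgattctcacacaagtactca
Gzmc (chr14:56234658-56234907, minus strand): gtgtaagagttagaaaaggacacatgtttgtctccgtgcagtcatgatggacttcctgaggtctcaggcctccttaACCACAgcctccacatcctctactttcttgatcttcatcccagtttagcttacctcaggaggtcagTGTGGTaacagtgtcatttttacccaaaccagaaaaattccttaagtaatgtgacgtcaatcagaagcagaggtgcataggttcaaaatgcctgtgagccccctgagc
Gzmd (chr14:56132594-56132843, minus strand): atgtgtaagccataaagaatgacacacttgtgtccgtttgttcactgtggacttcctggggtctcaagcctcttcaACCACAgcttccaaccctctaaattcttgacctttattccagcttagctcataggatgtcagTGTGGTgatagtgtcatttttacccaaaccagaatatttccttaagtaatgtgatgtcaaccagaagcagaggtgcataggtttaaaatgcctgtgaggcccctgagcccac
Gzme (chr14:56120626-56120875, minus strand): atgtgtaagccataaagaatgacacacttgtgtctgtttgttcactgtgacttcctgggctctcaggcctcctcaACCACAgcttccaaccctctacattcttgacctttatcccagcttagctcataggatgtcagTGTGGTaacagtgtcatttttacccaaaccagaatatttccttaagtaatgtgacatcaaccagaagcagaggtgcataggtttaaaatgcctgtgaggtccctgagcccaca
Gzmf (chr14:56211408-56211657, minus strand): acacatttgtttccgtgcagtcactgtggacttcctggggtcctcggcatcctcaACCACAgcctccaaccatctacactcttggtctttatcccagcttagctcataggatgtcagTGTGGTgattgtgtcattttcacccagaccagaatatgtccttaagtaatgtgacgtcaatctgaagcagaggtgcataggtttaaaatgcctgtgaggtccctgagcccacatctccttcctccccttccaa
Gzmm (chr10:79688770-79689019, plus strand): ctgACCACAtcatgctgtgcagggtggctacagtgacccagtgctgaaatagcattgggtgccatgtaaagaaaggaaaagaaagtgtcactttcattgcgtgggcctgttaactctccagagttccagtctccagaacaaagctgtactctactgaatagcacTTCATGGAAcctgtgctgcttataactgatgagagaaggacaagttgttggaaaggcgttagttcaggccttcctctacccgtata
The windows of Gzmc and Gzmd precede starts that lie inside the spans RefSeq gives these genes, so the Gzmc window lies within its span and that of Gzmd overlaps its span in part. The window of Prf1, not shown but counted below, also overlaps its span in part. For Gzmm 2 starts were listed, and the first was used. Promoters of Gzmd and Gzme were identical at 94.8% of aligned positions, and the other 9 pairs among Gzmc, Gzmd, Gzme, Gzmf and Gzmg at 71.5 to 82.7%. Pairs that include any other member, Gzmb among them, reached 46.4 to 53.2%. The RUNX motif was searched as TGTGGT on both strands, as was each motif below. It stood in 8 of the 9 measured members (all but Gzmk) and in 14.0% of 32851 promoters. Gzmb carried it 93 and 34 bases before its start, and Gzmc 174 and 108. An ETS motif (AGGAAG, not capitalised) was in 6 of 9 members and 29.5% of promoters. The AP-1 motif, written TGANTCA, was found among the members in Gzmb alone and in 6.75% of promoters. For STAT the letters were TTCNNNGAA, found in Gzmm alone and in 7.02% of promoters. A T-box motif was sought as TCACACC, which Gzmk alone holds, with 3.33% of promoters. None of the 9 held the TATA box letters TATAAA, which 12.4% of promoters do. These matches describe the letters in the windows and no binding.

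Gzmb, encoding granzyme B, rose in all 3 populations after transfer. Values in day 0 libraries were 145 and 135 in CD4, 236 and 363 in CD8 and 204 and 379 in Treg. Recovered Treg held 113553, 115106 and 117386, a narrow range far above both day 0 Treg libraries. The gene thus stood at 115348 ± 1928 (SD, n = 3) in recovered Treg, between the CD8 and the CD4 of the same treatment arm. Syngeneic CD4 held 1996, 2373 and 4272 and syngeneic CD8 16202, 11542 and 21999. In allogeneic recipients CD4 held 29286, 20943, 33256 and 34407 and CD8 134215, 119460, 179709 and 180755. Every allogeneic library lay above every syngeneic library of its population. CD4 of the Treg-treated arm held 34582, 41029, 34022 and 31893 and CD8 133187, 205511, 211116 and 237816, and both sets overlapped the untreated allogeneic libraries. By group mean the order was CD8 Treg-treated (196907), CD8 allogeneic (153535), recovered Treg (115348), CD4 Treg-treated (35382), CD4 allogeneic (29473), CD8 syngeneic (16581), CD4 syngeneic (2881), CD8 day 0 (299), Treg day 0 (292) and CD4 day 0 (139.8). Neighbours overlapped at the top (both CD8 allogeneic arms), among CD4 Treg-treated, CD4 allogeneic and CD8 syngeneic, and between day 0 CD8 and day 0 Treg.

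Prf1, encoding perforin, followed another order, with CD8 at the top and day 0 Treg at the bottom. CD8 held 2249 and 3089.7 at day 0, 4932, 4291 and 4295 in syngeneic, 12837, 13881, 10276 and 15096 in allogeneic and 13989, 8224, 12054 and 14299 in Treg-treated recipients. All libraries of both allogeneic CD8 arms lay above the syngeneic CD8 libraries. CD4 held 1098 and 1155 at day 0, 1131, 541 and 1157 in syngeneic, 1891, 2068, 1865 and 2299 in allogeneic and 1555, 1452, 1187 and 917 in Treg-treated recipients. The 4 untreated allogeneic CD4 libraries were thus above all other CD4 libraries. Treg held 162 and 298 at day 0 and 861, 709 and 1645 when recovered, so recovered Treg reached the range of CD4 and stayed below every CD8 library. The group means ran from 13022 in CD8 allogeneic to 230.2 in day 0 Treg. CD8 allogeneic overlapped CD8 Treg-treated, day 0 CD8 overlapped CD4 allogeneic, and CD4 Treg-treated, CD4 day 0, recovered Treg and CD4 syngeneic overlapped in turn.

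**Figure D2:**
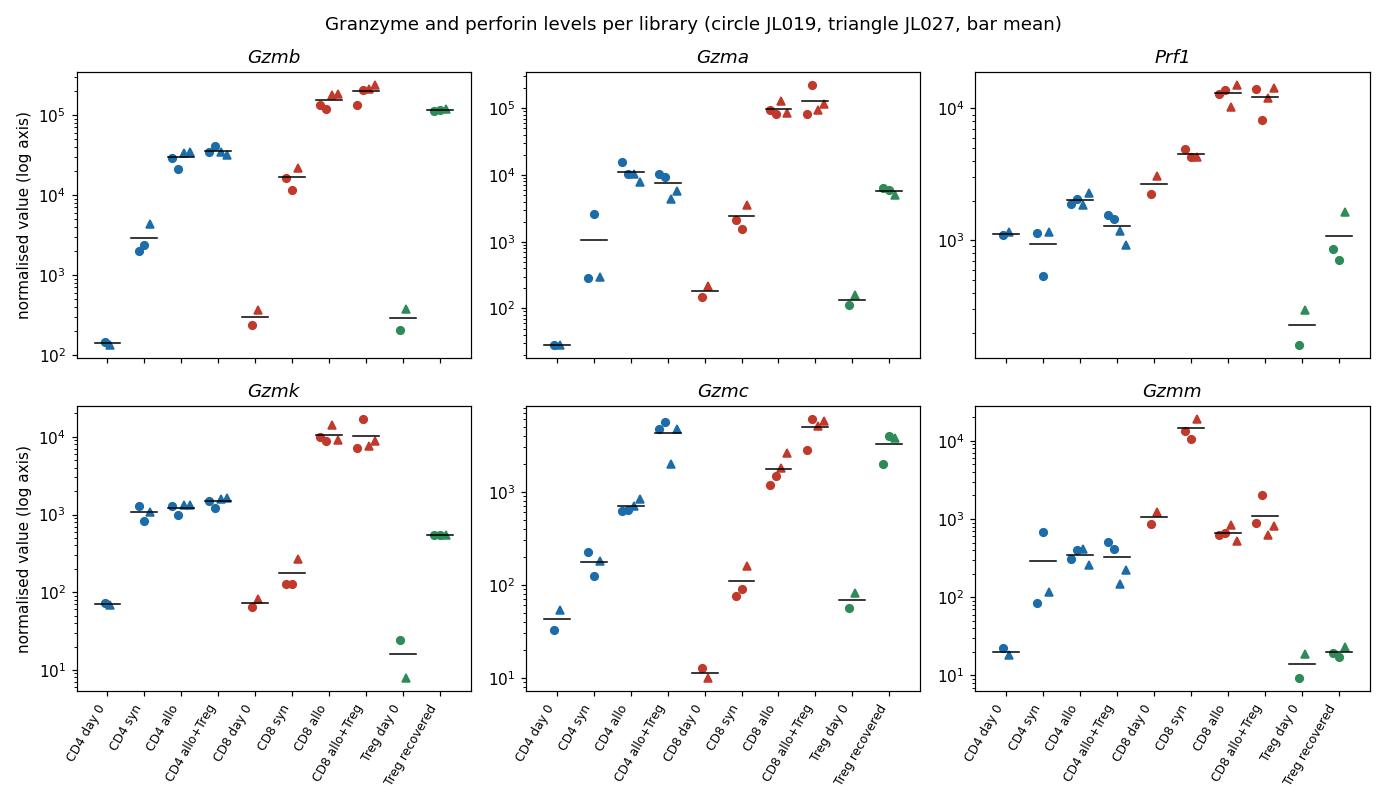
Normalised value of 6 members (Gzma, Gzmb, Gzmc, Gzmk, Gzmm and Prf1) in each of 31 libraries, on a log scale, by group. Each point is a library and each bar a group mean. Gzmb, Gzma, Gzmc and Gzmk are low at day 0 in all 3 populations, whereas Gzmm is highest in the 3 syngeneic CD8 libraries (10706 to 19174).

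Gzma, the gene of the tryptase granzyme A, had its highest values in CD8 of allogeneic recipients. These libraries held 92762, 83340, 126320 and 85642, and CD8 of the Treg-treated arm 83180.5, 224324, 94552 and 117108. The arms overlapped, and the value of 224324 belonged to JL019-2, which also had the highest Gzmk and Gzmm of its group. Syngeneic CD8 held 2129, 1557 and 3506 and day 0 CD8 150.3 and 217. In CD4 the values were 28.8 and 28.7 at day 0, 15512, 10399, 10513 and 7781 in allogeneic and 10298, 9389, 4395 and 5853 in Treg-treated recipients. Syngeneic CD4 held 282, 2612 and 293, and the highest of these was JL019-2, the library with high myeloid, NK and CD8 T cell sums. Recovered Treg, at 6291, 5920.2 and 4951 after 113 and 158 at day 0, lay in the range of CD4 from the same arm. By mean, the 2 CD8 arms came first, then CD4 allogeneic, CD4 Treg-treated and recovered Treg, which overlapped in turn, then syngeneic CD8 and CD4, which also overlapped, and last the 3 day 0 groups.

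Gzmk, the neighbour of Gzma and the gene of granzyme K, was high in CD8 only where the host was allogeneic. Allogeneic CD8 held 10036, 8945, 14269 and 8991, Treg-treated CD8 7267, 17126, 7736 and 8971, syngeneic CD8 128, 128 and 269 and day 0 CD8 64.6 and 81.7. In CD4 it was already raised in syngeneic recipients, at 1296, 837 and 1073, from 72.9 and 68.8 at day 0. Allogeneic CD4 (1293, 976, 1325 and 1315) and Treg-treated CD4 (1499, 1224, 1565 and 1639) overlapped that syngeneic range. Syngeneic CD8 thus stood below syngeneic CD4, and allogeneic CD8 above allogeneic CD4. Recovered Treg held 547, 545 and 542, the narrowest of the groups after transfer, from 24.3 and 7.76 at day 0.

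Gzmm, encoding granzyme M, a protease that cuts after methionine or leucine and is known from NK cells and innate-like T cells, had an order of its own. Syngeneic CD8 held 13342, 10706 and 19174, against 871 and 1239 in day 0 CD8, 629, 655, 838 and 530.0 in allogeneic CD8 and 879, 2031, 633 and 805 in Treg-treated CD8. The lowest syngeneic CD8 library was more than every library of any other group. The mean of syngeneic CD8, 14407 ± 4334 (SD, n = 3), was 21.7 times that of allogeneic CD8. In CD4 the values were 22.2 and 18.2 at day 0, 83.5, 677 and 117 in syngeneic, 311, 399, 408 and 258 in allogeneic and 504, 415, 149 and 223 in Treg-treated recipients. The syngeneic value of 677 came from JL019-2, whose NK sum was 1887, and the other 2 syngeneic CD4 libraries were below all 4 allogeneic ones. Treg stayed at 9.13 and 18.5 at day 0 and 19.4, 17.0 and 22.8 when recovered. The summed value of 6 NK markers was, like Gzmm, highest in syngeneic CD8, at 2900 to 4961 with none of the 6 at 0. It was 820 to 884 in day 0 CD8. Allogeneic CD8 held 868 to 1472, with 1 or 2 of the 6 at 0. Treg-treated CD8 held 631 to 2626, with up to 2 at 0. The NK sum and Gzmm did not move together everywhere. Gzmm values of allogeneic CD8 lay below those of day 0 CD8, whereas the NK sum did not fall. In CD4 the NK sum was 409 to 448 at day 0 and 212 to 260 in allogeneic recipients, where Gzmm was higher than at day 0. In syngeneic against day 0 CD8, 1 of the 6 NK markers was called higher and 1 lower. The summed value of 5 B cell markers was also highest in syngeneic CD8, at 1462 to 3113, against 787 to 970.3 in day 0, 304 to 452 in allogeneic and 164 to 508 in Treg-treated CD8. Its markers did not move together: in syngeneic against day 0 CD8, Cd22 was called higher and the other 4 lower (median log2 change −4.22), and in allogeneic against syngeneic CD8 only Cd22 was called, lower. The part of either list in the result was not tested. In bulk libraries, fewer cells of a type and less RNA per cell cannot be told apart.

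Gzmc, encoding granzyme C, stood higher in Treg-treated than in untreated allogeneic CD4. Treg-treated CD4 held 4743, 5694, 1987 and 4737, allogeneic CD4 616, 633, 701 and 837, syngeneic CD4 226, 123 and 179 and day 0 CD4 32.9 and 53.0. The lowest Treg-treated library, JL027-1, was still above the highest allogeneic library. JL027-1 was also the library of its group nearest to allogeneic CD4 in several marker sums and in its mean value per gene. Its summed value of 3 CD4 T cell markers was 21201, against 13542 to 14938 in the other 3 and 20868 to 26253 in allogeneic CD4. Its B cell sum was 1004, against 324 to 502 in the other 3 and 807 to 1226 in allogeneic CD4. Its myeloid sum (23440) was the lowest of its group. Its mean value per gene was 1608, against 1817 to 2118 in the other 3 and 1504 to 1669 in allogeneic CD4. The part of these in the Gzmc values was not tested. CD8 held 2836, 6113, 5052 and 5768 in the Treg-treated and 1198, 1482, 1789 and 2611 in the allogeneic arm, 76.5, 90.3 and 159.8 in the syngeneic arm and 12.6 and 9.81 at day 0. The CD8 arms also did not overlap, although their nearest libraries lay close (2836 and 2611). Recovered Treg held 2012, 3953 and 3793 after 56.3 and 82.0 at day 0. All 3 populations of the Treg-treated recipients thus shared 1 range of Gzmc, with means of 4942, 4290.5 and 3253 in CD8, CD4 and Treg.

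The other members of the granzyme B locus, Gzmd, Gzme and Gzmf, had low values and were listed at 0 in many libraries. Gzmf held 199, 189.6, 171 and 390.0 in allogeneic and 204, 266, 213 and 241 in Treg-treated CD8, and at most 2.52 in syngeneic and day 0 CD8. Gzme held 23.3, 20.6, 15.7 and 108 and 37.7, 76.5, 159 and 103 in these CD8 arms, and Gzmd 8.35, 26.4, 6.91 and 56.7 and 27.8, 34.9, 111 and 64.3. Both were listed at 0 in all 3 syngeneic CD8 libraries. In CD4 of Treg-treated recipients Gzme held 67.7, 2.40, 0.981 and 15.2, Gzmd 22.3, 3.62, 0 and 6.55 and Gzmf 55.0, 51.8, 12.8 and 34.9, with JL019-1 the highest library for each. Gzme was listed at 0 in all 4 allogeneic CD4 libraries, and Gzmd in 3 of them. Allogeneic CD4 held 29.4, 21.4, 11.9 and 9.47 for Gzmf. In recovered Treg, Gzmd was listed at 0 throughout, Gzme reached 2.09 and Gzmf 9.84.

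**Figure D3:**
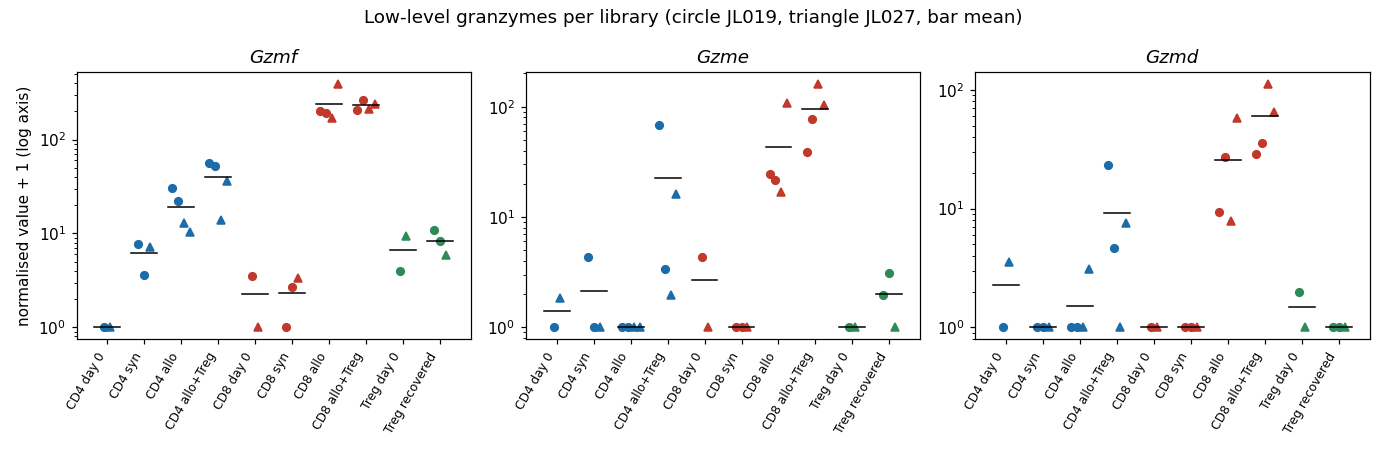
Normalised value + 1 of Gzmf, Gzme and Gzmd in each library, on a log axis, by group. Each point is a library and each bar a group mean. The values above 100 are all from CD8 of allogeneic and Treg-treated recipients, and recovered Treg reach at most 9.84 before 1 is added.

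Transfer into syngeneic recipients, compared with day 0, shows what happened without an allogeneic host. Tests throughout were limma fits of log2(value + 1) over all 31 libraries, with p-values adjusted over all 16741 genes by the Benjamini-Hochberg method and called under 0.05. In CD4, 6 of 9 members rose (Gzma, Gzmb, Gzmc, Gzmf, Gzmk and Gzmm), against 13.0% of all genes called and 9.90% higher. The median log2 change was 3.17 over the 7 members with no group at 0, against −0.04 for all genes. After centring the libraries on their medians, higher genes made up 53.8% of calls in CD4 in place of 76.0%. Without CD4 day 0 JL019, 4 members passed, Gzmc (limma adjusted p = 0.0668) and Gzmf being lost. Gzmf was listed at 0 in both day 0 CD4 libraries and was also lost without JL027. When only these 2 CD4 groups were fitted, Gzmb and Gzmk alone passed, with 1.40% of all genes called. Gzmb changed by 4.28 ± 0.32 (SE, limma adjusted p = 1.02e-10) and Gzmk by 3.87 ± 0.37 (SE, limma adjusted p = 9.44e-09). Without the library JL019-2, Gzma changed by 3.28 in place of 4.34 and Gzmm by 2.25 in place of 3.17, both still called. In CD8, 5 members rose (Gzma, Gzmb, Gzmc, Gzmk and Gzmm), with 24.2% of genes called and 13.0% higher. Gzmb changed there by 5.77 ± 0.32 (SE, limma adjusted p = 1.83e-12), and Gzmm by 3.75 ± 0.59 (SE, limma adjusted p = 6.92e-05). Gzmk rose by only 1.16 ± 0.37 (SE, limma adjusted p = 0.0246), a call that was lost without CD8 day 0 JL019 (limma adjusted p = 0.233) or without CD8 syngeneic JL027 (limma adjusted p = 0.153). The log2 change of Prf1 in CD8 was 0.77 ± 0.34 (SE, limma adjusted p = 0.0932). The CD8 median was 3.10 over the 7 members with no group at 0 and that of all genes −0.10. In CD8, higher genes made up 53.5% of calls, and 67.6% after centring. Markers of other cells moved with these changes. In CD4 the myeloid sum was 692 to 1572 at day 0 and 77619 to 3589930 in syngeneic recipients, with 10 of 10 markers called higher, and 8 of 10 without JL019-2. In CD8 it was 3556 to 4911 and 37662 to 61937, with 2 of 10 called higher, and the NK sum 820 to 884 and 2900 to 4961, with 1 of 6 called higher and 1 lower. Their part in the results was not tested.

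Allogeneic recipients against syngeneic ones show the members in GVHD. In CD4, 4 of 9 members were higher (Gzma, Gzmb, Gzmc and Prf1) and none lower, with 14.6% of all genes called and 6.69% higher. The log2 change was 4.16 ± 0.50 (SE, limma adjusted p = 9.26e-07) for Gzma, and 3.41 ± 0.27 (SE, limma adjusted p = 5.06e-10) for Gzmb. It was 2.01 ± 0.35 (SE, limma adjusted p = 0.00019) for Gzmc, and 1.18 ± 0.28 (SE, limma adjusted p = 0.0041) for Prf1. Gzmk, at 0.21 ± 0.31 (SE, limma adjusted p = 0.736), did not pass, nor did Gzmm (0.84 ± 0.50 SE, limma adjusted p = 0.304) or Gzmf (1.57 ± 0.54 SE, limma adjusted p = 0.0512). Gzmf passed when the label prefix was a block (limma adjusted p = 0.046) or without allogeneic CD4 JL027-2 (limma adjusted p = 0.0378). The myeloid-rich library decided part of this: without JL019-2, Gzmm passed (log2 change 1.76, limma adjusted p = 0.00486), Prf1 did not (0.82, limma adjusted p = 0.0646), and Gzma changed by 5.22. The myeloid sum was 77619 to 3589930 in syngeneic and 4958 to 10699 in allogeneic CD4. In allogeneic CD4, 2 of 2 CD8 T cell markers were lower and 3 of 5 Treg and 2 of 5 B cell markers higher, also without JL019-2. Without it, 1 of 5 Treg markers was lower as well. The B cell sum was 141 to 477 in syngeneic and 807 to 1226 in allogeneic CD4. Of 6 NK markers, 1 was lower, whereas without JL019-2 1 was higher and 0 lower. Their part in these results was not tested. Higher genes made up 45.8% of calls, and 58.0% after centring. Gzmb changed by 3.51 in the JL019 libraries alone and 2.98 in the JL027 libraries alone, where the syngeneic arm holds 1 library. The median of the members was 1.57 over the 7 members with no group at 0, against −0.0014 for all genes.

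In CD8, all 9 members differed between allogeneic and syngeneic recipients, 8 higher and Gzmm lower, with 21.1% of all genes called and 10.4% higher. The 2 CD8 groups did not overlap for any member, which held for 30.3% of all genes. Gzmk rose by 5.98 ± 0.31 (SE, limma adjusted p = 9.94e-14), from a mean of 175 to 10560.3. Gzma changed by 5.40 ± 0.50 (SE, limma adjusted p = 3.99e-09), Gzmb by 3.24, Gzmc by 4.02, Gzmf by 6.76 and Prf1 by 1.52. Gzmm changed by −4.42 ± 0.50 (SE, limma adjusted p = 1.35e-07). Within the prefixes its log2 change was −4.22 for JL019 and −4.84 for JL027, and that of Gzmk 6.20 and 5.39, the JL027 values resting on 1 syngeneic library. The members' median was 4.02 over the 7 members with no group at 0, against 0.02 for all genes. The myeloid sum was 37662 to 61937 in syngeneic and 5824 to 10250 in allogeneic CD8. Among 6 NK markers, 4 were lower in the same comparison, Klra4 among them at −7.09 ± 0.97 (SE, limma adjusted p = 3.47e-06). In the other direction, 5 of 5 Treg markers (median 4.53) and 2 of 3 CD4 T cell markers (median 2.13) were higher in allogeneic CD8. The part of these lists in the results was not tested.

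The difference between the populations was tested as an interaction (the CD8 change less the CD4 change). Of 9 members, 5 passed, with 4.65% of all genes called, 57.9% of them higher and 42.5% after centring. Gzmk gave 5.76 ± 0.44 (SE, limma adjusted p = 5.95e-09), Gzmf 5.19 ± 0.77 (SE, limma adjusted p = 8.79e-05), and Gzmc 2.01 ± 0.50 (SE, limma adjusted p = 0.0162). Gzmm gave −5.26 ± 0.70 (SE, limma adjusted p = 2.25e-05), in the opposite direction. Gzme also passed (limma adjusted p = 0.00701), but 2 of its 4 groups were listed at 0 throughout. Without JL019-2 these differences were 5.93 for Gzmk, 5.53 for Gzmf, 2.25 for Gzmc and −6.18 for Gzmm. The Gzmc call was lost without CD8 syngeneic JL019-1 (limma adjusted p = 0.0627). For Gzmb the difference was −0.17 ± 0.38 (SE, limma adjusted p = 0.904), so the changes in CD8 and CD4 could not be told apart at this precision. The members' median difference was 1.24 over the 7 members with no group at 0, against 0.01 for all genes. In the same interaction 4 of 5 Treg markers were higher and 1 of 6 NK markers lower (4 of 6 without JL019-2), and what these contribute was not tested.

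**Figure D4:**
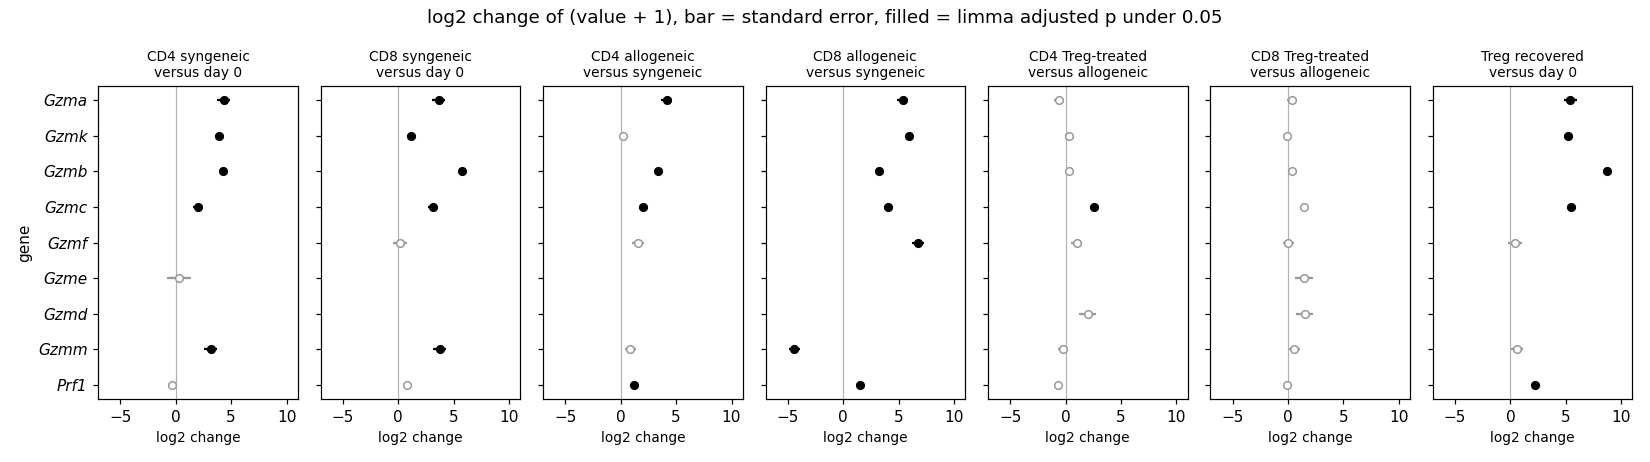
Log2 change of each member on the log2(value + 1) scale, with its standard error, in the main comparisons. Filled points passed an adjusted p under 0.05, and changes with a group listed at 0 in all libraries are left out. In CD8 allogeneic against syngeneic, Gzmm lies at −4.42 and the other members shown lie above 0, while in CD4 Treg-treated against allogeneic Gzmc lies at 2.53.

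Against day 0 the allogeneic arms combine both steps. In CD4, 6 members rose (Gzma, Gzmb, Gzmc, Gzmf, Gzmk and Gzmm), with 24.0% of all genes called and 14.4% higher. Gzma changed by 8.49 ± 0.56 (SE, limma adjusted p = 5.34e-12), and Gzmb by 7.68 ± 0.30 (SE, limma adjusted p = 5.87e-16). Prf1, at 0.85 ± 0.32 (SE, limma adjusted p = 0.0555), did not pass. In CD8, 8 members rose, with 30.4% of genes called and 16.3% higher. Gzmb changed there by 9.01 ± 0.30 (SE, limma adjusted p = 1.26e-17), Gzma by 9.04, Gzmk by 7.14, Gzmc by 7.13 and Prf1 by 2.29. Gzmm, at −0.67 ± 0.56 (SE, limma adjusted p = 0.386), did not pass, so allogeneic CD8 were not told apart from day 0 CD8 for this gene. Both comparisons share their allogeneic libraries with those against syngeneic recipients. The medians were 4.02 over the 7 members with no group at 0 in CD4 and 7.02 over the 8 members with no group at 0 in CD8, against −0.04 and −0.13 for all genes. The CD8 call of Gzme was lost without day 0 JL027 (limma adjusted p = 0.0982). Markers of other cells moved as well. In CD4, 5 of 10 myeloid markers were higher, the sum going from 692 to 1572 at day 0 to between 4958 and 10699. In CD8, 4 of 6 NK and 3 of 5 B cell markers were lower, and 3 of 10 myeloid markers higher and 2 lower. Treg markers were higher in both, 3 of 5 (and 1 lower) in CD4 and 4 of 5 in CD8 (median 4.88). In CD8, 1 of 3 CD4 T cell markers was higher and 2 of 4 mast cell and basophil markers lower. Their part in the results was not tested.

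Treatment with donor Treg was compared with untreated GVHD in each population. In CD4, Gzmc and Gzme were higher and no member was lower, with 22.2% of all genes called and 10.7% higher. The log2 change of Gzmc was 2.53 ± 0.33 (SE, limma adjusted p = 0.000249), and its mean was 6.16 times that of allogeneic CD4. It was 3.05 in the JL019 libraries alone (limma adjusted p = 0.051) and 2.00 in the JL027 libraries alone (limma adjusted p = 0.375). With any single library left out it ran from 2.36 to 2.86 and passed each time. Gzme (limma adjusted p = 0.0143) rests on an untreated group listed at 0 and was lost without JL019-1 (0.0665) or JL027-2 (0.053) of the Treg-treated CD4. Without JL027-1 of that group 4 members passed, Gzmd (limma adjusted p = 0.00477) and Gzmf (limma adjusted p = 0.0286) being gained. Gzmd also passed without allogeneic CD4 JL027-2 (limma adjusted p = 0.0485). The log2 difference of Prf1 was −0.69 ± 0.26 (SE, limma adjusted p = 0.0567), with all 4 treated libraries below all 4 untreated ones, a separation seen for 22.2% of all genes. Gzmb, at 0.28 ± 0.25 (SE, limma adjusted p = 0.437), Gzma, at −0.60 ± 0.46 (SE, limma adjusted p = 0.362), and Gzmf, at 1.00 ± 0.50 (SE, limma adjusted p = 0.15), did not pass. The myeloid sum also differed between these groups (23440 to 86747 in Treg-treated CD4, 4958 to 10699 in allogeneic CD4), and its part in the result was not tested. The Treg marker sums of these groups overlapped (29680 to 65644 and 30249 to 39952), but Treg-treated JL019-1 (53848) and JL019-2 (65644) lay above every allogeneic library. In this comparison 1 of 5 Treg, 1 of 6 NK and 2 of 10 myeloid markers were called higher, and none lower. What the Treg and NK markers contribute was not tested. The members' median was 0.28 over the 8 members with no group at 0, against −0.0018 for all genes. Centring the libraries on their medians moved the median of all genes to 0.20, and the direction of Gzmc and Prf1 held. Higher genes made up 48.1% of calls, and 64.6% after centring. The libraries of these groups also differed in the slope of log2 values, less each gene's mean, on log2 gene span, a technical measure that was −0.121 to 0.0161 in Treg-treated and 0.0194 to 0.0451 in allogeneic CD4, and in their mean value per gene. The slope of 0.0161 was that of Treg-treated JL027-1, the library of its group with the lowest Gzmc, and the others lay at −0.121 to −0.0688. With the trend on span removed Gzmc changed by 2.46 (limma adjusted p = 0.000169). With the library mean as a covariate it changed by 2.32 (limma adjusted p = 0.00101), where 3.40% of all genes were called, and Gzme also passed (limma adjusted p = 0.0469).

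In CD8, no member passed in the same comparison, with 0.0657% of all genes called by limma, and 1 member, Gzmc, was under an unadjusted p of 0.05. Its log2 change was 1.48 ± 0.33 (SE, limma adjusted p = 0.0784), and it passed without Treg-treated CD8 JL019-1 (1.73, limma adjusted p = 0.0314). For Gzmc alone the CD8 groups stood apart, as for 4.89% of all genes. Their myeloid sums also stood apart (11686 to 31661 in Treg-treated and 5824 to 10250 in allogeneic CD8), with 0 of 10 markers called. Of 6 NK markers, 1 was called higher in Treg-treated CD8. The part of these in the result was not tested. Gzmb, at 0.35 ± 0.25 (SE, limma adjusted p = 0.574), did not pass. The members' median was 0.35 over the 9 members with no group at 0, against −0.0069 for all genes. The difference of the Treg effect between CD8 and CD4 was −1.05 ± 0.46 (SE, limma adjusted p = 0.898) for Gzmc, and no member passed, with 0.00597% of genes called. By unadjusted p under 0.05, 1 member passed, again Gzmc. The members' median difference was −0.16 over the 8 members with no group at 0, against 0.0058 for all genes. The larger Gzmc change in CD4 was therefore not shown to differ from that in CD8.

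The Treg-treated arms were also set against the syngeneic ones. In CD4, 5 members were higher (Gzma, Gzmb, Gzmc, Gzmd and Gzmf), with 16.7% of all genes called and 8.23% higher. Higher genes made up 49.4% of calls, and 75.0% after centring. Gzmc changed by 4.54 ± 0.35 (SE, limma adjusted p = 5.01e-10), Gzmb by 3.69 ± 0.27 (SE, limma adjusted p = 1.93e-10), and Gzma by 3.56 ± 0.50 (SE, limma adjusted p = 1.01e-05). Without JL019-2, Gzmm also passed (1.54, limma adjusted p = 0.00963) and Gzmd no longer did. The Gzmd call was lost without any 1 of the 3 syngeneic libraries or without JL019-1, JL019-2 or JL027-2 of the Treg-treated ones. Gzme, not called over all libraries, passed without syngeneic JL019-1 or without Treg-treated JL019-2 or JL027-1. In CD8, 8 members were higher and Gzmm lower, with 18.2% of genes called and 9.56% higher. Gzmm changed by −3.84 ± 0.50 (SE, limma adjusted p = 1.44e-06), Gzmk by 5.87 and Gzmc by 5.51. The members' medians were 2.54 over the 8 members with no group at 0 in CD4 and 5.51 over the 7 members with no group at 0 in CD8, against −0.05 and 0.0083 for all genes. These comparisons share their libraries with those above. Gzma, Gzmb and Gzmc were thus above syngeneic levels in both populations of Treg-treated recipients. In these comparisons 6 of 10 myeloid, 2 of 2 CD8 T cell and 2 of 6 NK markers were lower in CD4, and 3 of 5 Treg markers higher. Without JL019-2, 2 of 10 myeloid markers were lower and 1 higher, 1 of 2 CD8 T cell markers was lower, and 2 of 6 NK markers were higher and none lower. In CD8, 4 of 6 NK markers were lower and 1 higher, and 2 of 10 myeloid markers lower and 1 higher. All 5 Treg markers (median 4.26), 2 of 3 CD4 T cell and 2 of 4 mast cell and basophil markers were higher there. Their part in the results was not tested.

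The infused Treg gained 5 members between day 0 and recovery (Gzma, Gzmb, Gzmc, Gzmk and Prf1), with 13.3% of all genes called and 8.43% higher. All 5 passed with any single library left out. Prf1 changed by 2.18 ± 0.34 (SE, limma adjusted p = 3.52e-05), Gzma by 5.40 ± 0.59 (SE, limma adjusted p = 2.22e-07), and Gzmc by 5.50 ± 0.42 (SE, limma adjusted p = 6.53e-10). Gzmk changed by 5.20 ± 0.37 (SE, limma adjusted p = 1.65e-10). The members' median was 5.20 over the 7 members with no group at 0, against −0.07 for all genes. At day 0, Treg held less Prf1 than CD4 (−2.35 ± 0.37 SE, limma adjusted p = 0.000201) and less Gzmk (−2.27 ± 0.40 SE, limma adjusted p = 0.000781), with 3.89% of genes called. The Gzmk call was lost without Treg day 0 JL027 (−1.51, limma adjusted p = 0.0715). Gzmf, the third member called, was listed at 0 in day 0 CD4 and was lost with any single library of the groups compared left out. With the label prefix as a block Gzmb also passed (limma adjusted p = 0.0444). The medians were −0.41 over the 7 members with no group at 0 and 0.07 for all genes. The rise from day 0 to the Treg-treated arm was compared between Treg and CD4, where 4.71% of genes were called. Prf1 rose more in Treg (2.03 ± 0.47 SE, limma adjusted p = 0.00982), a call lost without CD4 day 0 JL027 (0.055) or Treg day 0 JL019 (limma adjusted p = 0.129). Gzmm rose less (−3.23 ± 0.82 SE, limma adjusted p = 0.0201), a call lost without either day 0 CD4 library or Treg day 0 JL027. Gzmf also rose less (limma adjusted p = 0.00187), against a group listed at 0. For Gzmb the difference was 0.72 ± 0.44 (SE, limma adjusted p = 0.302). The members' median difference was −0.16 over the 6 members with no group at 0, against −0.06 for all genes. Gzma also passed there without Treg-treated CD4 JL027-1 (limma adjusted p = 0.0311). Of 6 NK markers, 4 were lower in recovered than in day 0 Treg, the sums being 50.6 to 92.1 and 288 to 454. In the difference of the rise, 5 of 10 myeloid markers were lower in Treg. Their part in the results was not tested.

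Recovered Treg and the conventional cells of the same recipients differed in which granzymes they held. Values in parentheses are log2 differences. Against Treg-treated CD4, Treg had more Gzmb (1.71 ± 0.27 SE, limma adjusted p = 5.01e-05), and less Gzmm (−3.82 ± 0.50 SE, limma adjusted p = 3.94e-06), Gzmk (−1.43 ± 0.31 SE, limma adjusted p = 0.0013), Gzmf (−2.10), Gzmd and Gzme. That is 6 of 9 members, with 30.0% of all genes called and 16.1% lower. Higher genes made up 46.2% of calls, and 32.7% after centring. The calls of Gzmd and Gzme were lost when single libraries were left out. Gzmc (−0.36 ± 0.35 SE, limma adjusted p = 0.457) and Gzma (−0.31 ± 0.50 SE, limma adjusted p = 0.661) did not pass. Against Treg-treated CD8, 8 members were lower in Treg, with 36.2% of genes called and 18.7% lower. Gzmm differed by −5.57 ± 0.50 (SE, limma adjusted p = 2.62e-09), Gzma by −4.40, Gzmk by −4.14 and Prf1 by −3.57 ± 0.28 (SE, limma adjusted p = 3.15e-10). Gzmb differed by only −0.74 ± 0.27 (SE, limma adjusted p = 0.0329), a call lost on leaving out any of 6 libraries. Gzmc, at −0.61 ± 0.35 (SE, limma adjusted p = 0.178), did not pass. The members' medians were −0.90 over the 8 members with no group at 0 against CD4 and −4.27 over the 8 members with no group at 0 against CD8, where all genes had 0.14 and 0.14. Markers of other cells differed too. The myeloid sum was 1323 to 6458 in recovered Treg, 23440 to 86747 in CD4 and 11686 to 31661 in CD8, with 4 and 5 of 10 markers called lower in Treg. The NK sum was 50.6 to 92.1, 162 to 339 and 631 to 2626, with 2 and 3 of 6 called lower. Their part in the results was not tested.

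CD8 and CD4 were compared at each stage. At day 0, 3 members passed, with 3.32% of all genes called. Gzmm was higher in CD8 by 5.62 ± 0.65 (SE, limma adjusted p = 1.64e-06). Gzma (higher, limma adjusted p = 0.0181) and Gzmc (lower, limma adjusted p = 0.0215) were lost with any single library of the groups compared left out. With the label prefix as a block Gzmb also passed (limma adjusted p = 0.0302). Higher genes made up 66.9% of calls at day 0, and 52.5% after centring. In syngeneic recipients 5 members passed, with 12.0% of genes called, 41.6% of them higher in CD8 and 62.1% after centring. Gzmm was higher in CD8 by 6.21 ± 0.53 (SE, limma adjusted p = 3.17e-09), Gzmb by 2.56, Prf1 by 2.33 and Gzma by 1.91, while Gzmk differed by −2.68 ± 0.33 (SE, limma adjusted p = 1.58e-06). The Gzma call was lost without either other syngeneic CD4 library or without CD8 syngeneic JL027, and its log2 difference was 2.98 without JL019-2. In allogeneic recipients 8 members were higher in CD8, with 6.15% of genes called and 3.05% higher. Gzmk differed by 3.09 ± 0.29 (SE, limma adjusted p = 3.19e-08), Prf1 by 2.67 ± 0.26 (SE, limma adjusted p = 7.99e-08), Gzma by 3.16, Gzmb by 2.38, Gzmf by 3.69 and Gzmc by 1.29. The Gzmc call was lost without CD8 allogeneic JL027-2 (1.09, limma adjusted p = 0.0751). In Treg-treated recipients 8 members were again higher in CD8, with 9.61% of genes called and 4.90% higher, Gzmm (1.75 ± 0.46 SE, limma adjusted p = 0.013) among them. Gzmc, at 0.25 ± 0.33 (SE, limma adjusted p = 0.69), was the exception. The Gzme call in this arm was lost without CD4 JL019-2 or CD8 JL027-1, and that of Gzmm without CD4 JL027-2 (limma adjusted p = 0.0509). The sign of the Gzmk difference was negative in syngeneic and positive in allogeneic recipients, the contrast that the interaction above tests. The members' medians were 1.06 over the 7 members with no group at 0 at day 0, 1.91 over the 7 members with no group at 0 in syngeneic, 2.88 over the 8 members with no group at 0 in allogeneic and 2.73 over the 9 members with no group at 0 in Treg-treated recipients, against 0.07, −0.05, −0.03 and −0.03 for all genes. Of 6 NK markers, 2 were higher in CD8 at day 0, 4 in syngeneic (5 without JL019-2), 2 in allogeneic and 1 in Treg-treated recipients, and of 10 myeloid markers 3 were lower in syngeneic CD8 (0 without JL019-2) and none at the other stages. Their part in the results was not tested.

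Over the 10 group means of log2(value + 1), the members resembled each other to different degrees. These correlations are descriptions over 10 groups that share libraries and normalisation. Gzmd and Gzme had Pearson r = 0.966, Gzma and Gzmb 0.957, and Gzmb and Gzmc 0.903. Gzmm correlated with the others at 0.014 (Gzmc) to 0.726 (Prf1). Of all other genes with a group mean of at least 100, Unc13a and Ccz1 were most like Gzma (0.983 and 0.982), and Capza2 and Ccz1 most like Gzmb (0.981 and 0.980). The nearest to Gzmc were Itpripl1 (0.980), Yaf2 (0.978) and Tmem39a (0.977). Gzmm was most like Dars (0.965), Ly6c2 (0.961) and Scart1 (0.960), and Gzmk most like H2ac23 (0.987). For Prf1 the nearest was Cdc16 (0.969), for Gzmf Insl6 (0.961), for Gzmd Tuba1a (0.948) and for Gzme Alpk2 (0.917).

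The machinery around the granzymes was read from 5 lists of genes. The shares of all genes called, given above, serve as background: 10.4% higher in CD8 and 6.69% in CD4 for allogeneic against syngeneic recipients, and 8.43% higher in recovered against day 0 Treg. Clade B serpins such as Serpinb9 inhibit granzymes inside the cells that make them. In CD8, 5 of 5 listed serpins were higher in allogeneic than in syngeneic recipients (median log2 change 3.34), Serpinb9b by 7.61 ± 0.54 (SE, limma adjusted p = 3.49e-11) and Serpinb9 by 3.34 ± 0.26 (SE, limma adjusted p = 2.51e-10). In CD4, 3 of 5 were higher (median 3.43), Serpinb6b by 3.89 ± 0.23 (SE, limma adjusted p = 2.7e-12), and 4 of 5 without JL019-2 (median 3.01). Recovered Treg gained 3 of 5 and lost 1 of 5 from day 0, Serpinb9 changing by 3.22 ± 0.32 (SE, limma adjusted p = 3.65e-08). They held less of all 5 than Treg-treated CD4 (median −1.10, with 16.1% of all genes lower) and CD8 (median −1.97, with 18.7% lower), with log2 differences of −4.15 and −4.14 for Serpinb9b. Serpinb9b was also lower in Treg-treated than in allogeneic CD4, at −1.87 ± 0.50 (SE, limma adjusted p = 0.0157).

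Of 11 tested genes for granule transport and release, 5 were higher and none lower in allogeneic than syngeneic CD4 and CD8 alike. Rab27a, the small GTPase that docks granules, changed by 1.34 in CD4 and 2.14 in CD8. Stx11, a syntaxin of granule fusion, changed by 0.91 and 2.24. Its change was larger in CD8 (interaction 1.33 ± 0.28 SE, limma adjusted p = 0.00438), and that of Sytl3, a Rab27 effector, larger in CD4 (−2.09 ± 0.27 SE, limma adjusted p = 2.07e-05). Without JL019-2, 3 of the 11 were higher in CD4. In Treg-treated against allogeneic CD4, 6 of 11 were lower and 1 higher (median −0.56), with 11.5% of all genes lower and 10.7% higher. After centring 4 were lower and 1 higher. Rab27a changed by −1.28 ± 0.22 (SE, limma adjusted p = 0.00241), Sytl3 by −0.98 and Lyst, a lysosomal trafficking protein, by −1.08. Recovered Treg gained 4 of 11, Sytl3 by 4.09 and Rab27a by 1.88. Of 8 genes for granule content and maturation, 3 were higher and 1 lower in allogeneic than syngeneic CD4 (median 0.25), and 4 higher and 1 lower without JL019-2. In CD8, 2 were higher and 1 lower (median −0.07). Nkg7, a granule membrane protein, was higher in allogeneic CD4 by 2.16 ± 0.34 (SE, limma adjusted p = 5.76e-05). It also rose in recovered Treg by 3.89, together with Srgn, the proteoglycan that packs granzymes (2.01), among 5 of 8.

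Of 12 transcription factors linked to cytotoxic genes, 7 were higher and 1 lower in allogeneic than syngeneic CD4, and 5 higher and 1 lower in CD8. Without JL019-2, 6 were higher and none lower in CD4. Prdm1 (Blimp-1) changed by 2.91 in CD4 and 4.48 in CD8, and Bhlhe40 by 3.24 and 3.78. Eomes, a T-box factor of memory CD8, was lower in allogeneic CD8, at −2.17 ± 0.26 (SE, limma adjusted p = 4.78e-07). In Treg-treated against allogeneic CD4, 1 of the 12 was higher and 2 were lower, a share of calls near that of all genes (22.2%). There Prdm1 changed by −1.37 ± 0.25 (SE, limma adjusted p = 0.00348) and Bhlhe40 by −1.07, while Batf changed by 0.85. Recovered Treg gained 7 of 12, Prdm1 by 2.16. Of 4 death ligands, 2 were higher and 2 lower in allogeneic than syngeneic CD4, and 1 higher and 2 lower without JL019-2. In CD8, 1 was higher and 3 lower. Fasl was higher in allogeneic than syngeneic CD4 (2.64) and CD8 (1.11), while Lta was lower in both (−2.14 and −2.85). In Treg-treated CD4, Lta and Tnfsf10 were higher than in allogeneic CD4, by 1.09 and 0.73. In Treg-treated against allogeneic CD8, none of the 40 genes of these 5 lists passed, and only 0.0657% of all genes did.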

How the data were processed

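Bulk RNA was measured in 31 libraries, grouped by the cell type and treatment in the labels. Full-length cDNA was made from sorted cells before library preparation, per the labels' protocols. The deposited table gives a normalised signal for each gene and library. Its headers are those the authors' DESeq2 output has, so the values are taken as counts divided by size factors. The submitters' processing notes name FastQC 0.11.7, kallisto, DESeq2, GRCm38 and mm10, without role or order. Scaled values are comparable between libraries for 1 gene. Levels are not compared between genes, since the values are not per length. The authors' deposited fold change and p-value columns name no groups and were not used, and the receptor tables were not used.

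Values were analysed as log2(value + 1) in limma 3.58.1 (R 4.3.3) with trend and robust options, 10 group means in 1 fit, and Benjamini-Hochberg adjustment over 16741 genes. A minimum mean value of 1 removed 0 genes. Fold changes of low genes are understated on this scale. Descriptions used Python 3.11.15, numpy 2.4.6, pandas 2.3.3 and matplotlib 3.10.9. The fit was tested on simulated data. The members and lists were chosen with earlier results of these data known. Named genes were the members in every group, up to 3 called genes of lowest p per list and comparison, and the 3 genes most like each member. Other genes were not singled out, except Klra4 and its NK list.

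Same-labelled CD4 and CD8 libraries of allogeneic recipients deviated together (r = 0.135 to 0.416 over 4 pairs), so the labels pair them. With the recipient as a block, 8 members passed in that comparison, as without it. Alternatives were other pseudocounts (0.1 and 10), scalings, filters, blocks, each prefix alone and each library left out.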

Additional observations from a re-analysis of the deposited data

Results flagged for a closer look

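Of 35 member and group combinations with 4 libraries and some spread, 4 held a library far from the other 3. For normally distributed values, chance alone gives such a library in about 1 in 20 groups. The rule was applied to values that were not logged, and members share libraries, so this rate need not hold here. CD8 allogeneic JL027-2 was high for Gzme (107.9) and Gzmf (390.0). CD4 allogeneic JL027-2 held 2.11 for Gzmd where the other 3 libraries were listed at 0, so that any value above 0 would stand apart there, and this case cannot be set against the chance rate. CD4 allogeneic JL019-2 was low for Gzmk, at 975.9.

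Changes that differed between populations by an interaction in limma were the following. For the allogeneic response, CD8 minus CD4, the log2 difference was 2.01 for Gzmc, 5.19 for Gzmf, 5.76 for Gzmk and −5.26 for Gzmm. It was 5.67 for Gzme, a value that rests on groups listed at 0 and depends on the pseudocount. For the rise from day 0, Treg minus CD4, it was 2.03 for Prf1 and −3.23 for Gzmm. For Gzmf it was −4.71, which also rests on a group listed at 0. The NK marker sums were, like Gzmm, highest in syngeneic CD8 but did not follow it in every group. They are given with the Gzmm values, and their part was not tested.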

How the results depend on the processing

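For 127 single gene results, 108 of them called, 2819 alternative fits were run: 2617 kept direction and side of the threshold, 169 lost and 22 gained a call, and 11 reversed. No called change reversed. With 1 prefix alone, all 108 called results kept their direction, 72 were called in JL019 and 77 in JL027. Counts of members called, over all libraries and in JL019 alone, were 2 and 0 for CD4 Treg-treated versus allogeneic, 5 and 3 for CD8 syngeneic versus day 0, 3 and 0 for CD8 versus CD4 at day 0, 8 and 3 for CD8 versus CD4 in allogeneic and 8 and 4 in Treg-treated hosts, 5 and 1 for the difference of the allogeneic response, 3 and 0 for the difference of the rise from day 0, and 3 and 0 for Treg versus CD4 at day 0. In JL027 alone, they were 2 of 4 for CD4 allogeneic versus syngeneic, 0 of 2 for CD4 Treg-treated versus allogeneic, 3 of 5 for CD4 Treg-treated versus syngeneic, 5 of 8 for CD8 versus CD4 in allogeneic hosts, 2 of 5 for the difference of the allogeneic response, 0 of 3 for the difference of the rise and 2 of 6 for Treg versus CD4 in Treg-treated hosts. In these fits each day 0 group, and in JL027 also each syngeneic group and recovered Treg, holds 1 library, which is assumed to vary like the other groups, so a lost call says little. Fitting only the groups compared left 2 of 6 for CD4 syngeneic versus day 0, 3 of 5 for CD4 Treg-treated versus syngeneic and 5 of 8 for CD8 versus CD4 in Treg-treated hosts. All genes called fell there too, from 2181 to 235, 2789 to 598 and 1609 to 715. With the library mean as a covariate they numbered 570 in place of 3710 for CD4 and 50 in place of 11 for CD8 in Treg-treated versus allogeneic. A pseudocount of 10 left 1 of 2 for CD4 Treg-treated versus allogeneic, Gzme being the call lost. For these other changes the cause was not tested. Leaving out 1 library gave 1 to 4 called members for CD4 Treg-treated versus allogeneic, 0 to 1 for CD8 Treg-treated versus allogeneic, 1 to 1 for CD8 versus CD4 at day 0, 1 to 4 for the difference of the rise and 1 to 2 for Treg versus CD4 at day 0. The reversed results, none called, were Gzma in Treg versus CD4 of Treg-treated hosts with the library mean as a covariate (0.70), Gzmb in CD4 Treg-treated versus allogeneic in JL027 alone (−0.0383) and after quantile normalisation (−0.10), Gzmb in CD8 Treg-treated versus allogeneic after quantile normalisation (−0.0761), Gzmb in the difference of the allogeneic response (0.0495 in JL027 alone, 0.10 after quantile normalisation, −0.496 to 0.0572 with 1 library left out), and Gzmc in CD8 versus CD4 of Treg-treated hosts (−0.32 in JL019 alone, −0.0879 to 0.495 with 1 library left out) and Treg versus CD4 of the same hosts (0.31 in JL027 alone). With the label prefix as a replicate block, Gzmb passed for CD8 versus CD4 at day 0 (limma adjusted p = 0.0302) and for Treg versus CD4 at day 0 (limma adjusted p = 0.0444). With the replicate label as the block, Prf1 passed for CD4 Treg-treated versus allogeneic (limma adjusted p = 0.0391). Same-labelled libraries of these 2 groups correlated at −0.096 to 0.003, so they share only a number. Same-labelled libraries correlated at −0.107 to 0.428 in Treg-treated and −0.114 to 0.145 in syngeneic recipients, which does not settle whether they share a recipient. At day 0 they correlated at −0.319 (CD8) and −0.207 (Treg), and the crossed pairing, chosen after seeing the data, called 3 members in each comparison, against 4 with the labels' pairing and 3 with none. Depth is unknown, so values near 0 of Gzmd, Gzme and Gzmf have no counting interval.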

Other observations

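Of 8 other serine protease genes of the granzyme B locus, 3 had a row. Ctsg, encoding cathepsin G of myeloid cells, was higher in syngeneic CD4 than at day 0 (4.16 ± 1.13 SE, limma adjusted p = 0.0138), and lower in allogeneic than syngeneic CD4 (limma adjusted p = 0.0307). Both Ctsg calls rest on the myeloid-rich library JL019-2: without it the log2 changes were 2.55 (limma adjusted p = 0.132) and −1.39 (limma adjusted p = 0.401). Mcpt8, a basophil protease, was lower in recovered Treg than in CD4 (−5.46 ± 1.08 SE, limma adjusted p = 0.000623) and CD8 (−4.52) of Treg-treated recipients. The death ligand Tnf was higher in syngeneic than day 0 CD8 (3.32 ± 0.38 SE, limma adjusted p = 9.71e-07) and lower in allogeneic than syngeneic CD8 (−2.29 ± 0.32 SE, limma adjusted p = 4.4e-06), as Gzmm was.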
